A study of Mus musculus with 14 samples.

Results

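The D cyclins Ccnd1, Ccnd2 and Ccnd3, their kinases Cdk4 and Cdk6, the CDK inhibitors Cdkn1b and Cdkn2c, the pocket protein gene Rb1 and the E cyclins Ccne1 and Ccne2 were followed through the RNA, the m6A-RIP, the Igf2bp3-RIP and the Lin28a-RIP of cultured mouse muscle stem cells (MuSCs). These 10 genes of the 14837 in the input table were chosen by their place at the entry into the cell cycle and by their RNA in the same input libraries, in which Ccnd1 and Ccnd2 were lower in Lin28a+ MuSCs while replication genes were higher. The RNA values below are therefore a description with no test. Members were matched by symbol to the Ensembl identifiers of the input and to the Entrez identifiers of the RIP tables, and all 10 were found and passed the filter on low counts, which kept 11317 genes.

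In G1, D cyclins bind Cdk4 or Cdk6, and the active kinases phosphorylate the retinoblastoma protein, which then releases E2F transcription factors. E2F activity raises E cyclins and replication genes, and cyclin E with Cdk2 carries the cell into S phase. Inhibitors of the INK4 family such as Cdkn2c bind Cdk4 and Cdk6, whereas the Cip/Kip inhibitor Cdkn1b (p27) acts mainly on the cyclin E and Cdk2 complex. D cyclin RNAs are short-lived and follow growth factor signals, and in satellite cells withdrawal from the cycle precedes differentiation. m6A is a methyl mark on adenosines of mRNA, and Igf2bp3 and Lin28a are RNA-binding proteins.

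For both control and Lin28a+ MuSCs, input RNA, m6A-RIP and Igf2bp3-RIP were each sequenced in 2 libraries, and a Lin28a-RIP was made from Lin28a+ MuSCs only, also in 2. The muscle of the Lin28a+ group came from mice that carry Lin28a-CreERT2 and LSL-tdTomato, and the cells were obtained by flow sorting. In these mice the Lin28a promoter drives an inducible Cre and the reporter marks cells where Cre was active, so the group holds cells in which that promoter was on when Cre acted and their descendants. The control cells are labelled by genotype only as Control, both groups are labelled as untreated or by their RIP, and both were grown on Matrigel in DMEM with fetal bovine serum. Age and the number of animals are not given in the sources used here. The study's methods speak of biological replicates for each experiment, in a larger number than the libraries analysed here, but not of how the sequenced ones were prepared, so p-values measure only the spread between these libraries, which may be technical. Levels are given in CPM, counts scaled by library size with a TMM factor, and fold changes compare Lin28a+ with control MuSCs.

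Table totals were 4842915 to 6220960 in the input, 21350962 to 31830638 in the m6A-RIP, 9215355 to 34142094 in the Igf2bp3-RIP and 33908110 to 36610494 in the Lin28a-RIP. The myogenic markers, of which 10 of 10 were kept, summed to 15314 to 15931 CPM in control and 14783 to 14973 CPM in Lin28a+ MuSCs. Of these markers 3 were called higher, namely Pax7 (148 to 191 CPM), Cdh15 (1349 to 2316 CPM) and Myog (765 to 2795 CPM), and 5 lower, namely Chrna1 (5923 to 3149 CPM), Des (1696 to 1188 CPM), Myf5 (455 to 199 CPM), Megf10 (401 to 87.3 CPM) and Vcam1 (17.5 to 4.63 CPM). Myod1, at means of 4651 and 4736 CPM, and Itga7 were not called. Of the fibro-adipogenic list (including Ly6a, Col1a1 and Cd34) 4 of 6 genes were analysed, with sums of 4.42 to 6.95 CPM in control and 13.1 to 15.7 CPM in Lin28a+ MuSCs, and Dcn and Lum were not analysed here. Of its 2 genes kept by the filter, Ly6a was called higher (4.20 to 13.0 CPM) and Col1a1 was not called. Of the endothelial list 1 gene of 5, Pecam1, was analysed, at no more than 0.552 CPM, and of the macrophage list 4 of 5, among them Cd68, Itgam and Csf1r, summed to no more than 2.76 CPM with Ptprc at 0 in every library. The pericyte and smooth muscle list summed to 5352 to 5437 CPM in control and 7505 to 7511 CPM in Lin28a+ MuSCs, nearly all of it Acta2 (means of 5384 and 7447 CPM), and 3 of its markers (Acta2, Mcam and Pdgfrb) were called higher and 1 lower (Rgs5, from 2.25 to 0.201 CPM), with Myh11 at no more than 0.0808 CPM in the mean of a group. The part of these differences in the values below was not tested, and fewer cells of a type and less RNA per cell cannot be told apart in such bulk libraries.

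RNA of the D cyclins was lower in Lin28a+ MuSCs to very different degrees. Ccnd1 stood at 589 and 585 CPM in the control libraries and at 76.8 and 76.1 CPM in the Lin28a+ libraries. The lower level was 7.67 times below the control level, a log2 fold change of -2.94 ± 0.03 (SE, n = 2 a group), which placed Ccnd1 122nd from the bottom of the 11317 genes. Ccnd2 had 368 and 377 CPM in the control and 75.7 and 75.6 CPM in the Lin28a+ libraries, a log2 fold change of -2.30 ± 0.03, the 201st lowest. Ccnd3 differed far less, with 151 and 154 CPM in control against 128 and 127 CPM, a log2 fold change of -0.26 ± 0.03. In each of these genes both control libraries lay above both Lin28a+ libraries. The groups did not overlap for any of the 10 members, but neither did they for 84.8% of all genes.

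**Figure D1:**
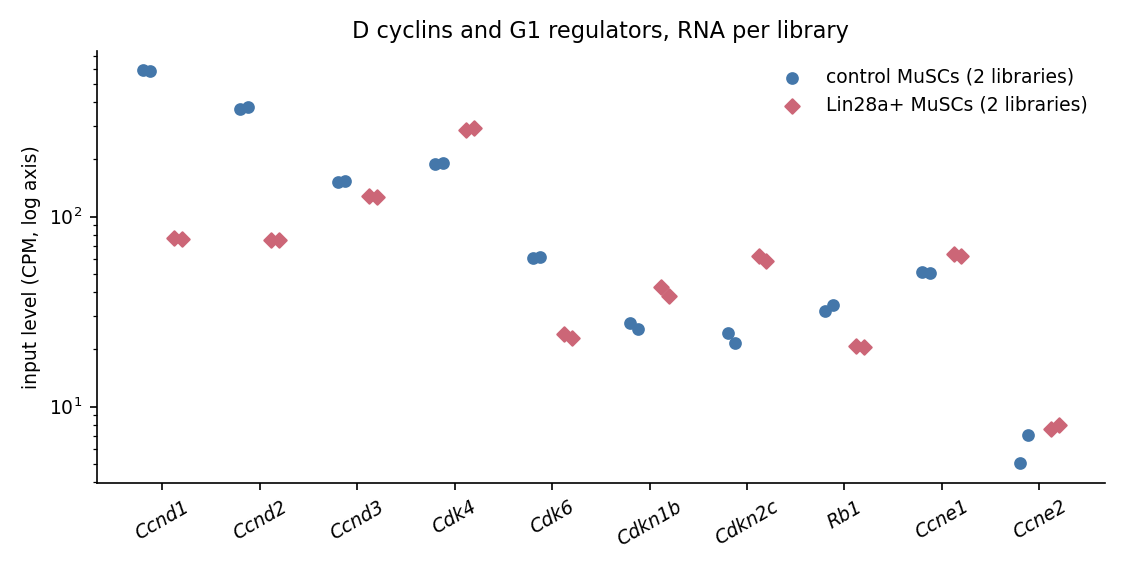
RNA of the 10 genes in each input library, in CPM on a log axis, with circles for the 2 control and diamonds for the 2 Lin28a+ libraries of each gene. The Ccnd1 points lie at 585 or more in control and at 76.8 or less in Lin28a+ MuSCs and those of Cdk6 at 60.9 or more and 24.2 or less, whereas Cdk4 and Cdkn2c lie higher in Lin28a+ MuSCs and the Ccne2 points run from 5.06 to 7.97, with the control libraries at 5.06 and 7.08.

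The catalytic partners of the D cyclins differed from each other. Cdk4 was at 189 and 192 CPM in the control libraries and at 287 and 292 CPM in the Lin28a+ libraries, a log2 fold change of 0.60 ± 0.03. Cdk6 was at 60.9 and 61.1 CPM against 24.2 and 23.1 CPM, a log2 fold change of -1.37 ± 0.05. The kinases were thus 1.52-fold higher and 2.58-fold lower. The RefSeq promoter windows of these kinases are printed because they belong to the pair of members with a shared cyclin partner and opposite RNA changes. Each runs from 250 bases before to 50 bases after a gene start of GRCm38.p6, 5′ to 3′ on the plus strand, with the E-box CACGTG in capitals.
Cdk4 promoter, chr10:127063285-127063584: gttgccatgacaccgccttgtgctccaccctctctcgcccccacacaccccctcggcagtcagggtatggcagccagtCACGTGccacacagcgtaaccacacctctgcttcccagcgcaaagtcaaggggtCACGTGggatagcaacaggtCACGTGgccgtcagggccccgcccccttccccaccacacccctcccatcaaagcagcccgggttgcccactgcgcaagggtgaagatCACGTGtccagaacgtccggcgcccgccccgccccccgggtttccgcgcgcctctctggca
Cdk6 promoter, chr5:3343643-3343942: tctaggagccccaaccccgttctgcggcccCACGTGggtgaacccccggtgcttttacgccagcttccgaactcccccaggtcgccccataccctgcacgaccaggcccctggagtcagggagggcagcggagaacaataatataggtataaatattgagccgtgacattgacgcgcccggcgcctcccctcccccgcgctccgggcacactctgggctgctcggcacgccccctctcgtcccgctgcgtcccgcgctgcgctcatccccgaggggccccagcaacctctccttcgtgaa
The Cdk4 window holds 4 matches to CACGTG, a hexamer that reads the same on both strands and is bound by factors such as Myc, beginning at -172, -118, -98 and -11 from the gene start. The Cdk6 window holds 1, at -220. Of 32851 RefSeq windows of this length 7.15% hold at least 1 match and 8 hold at least 4. A window was given for 6 of the 10 members, 8 windows in all, and besides these only the second Cdkn2c window had a match. TTTCGCGC or TTTGGCGC, spellings of the E2F site searched on both strands, occurred in 0.813% of all windows and in none of the 8. These matches describe letters in a window and show neither binding nor a cause, and the windows of Ccnd1, Ccnd2, Rb1 and Ccne2 were not analysed here.

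The inhibitors and the genes downstream of the D cyclins differed by less than Ccnd1 and Ccnd2. Cdkn2c was at 24.4 and 21.7 CPM in the control libraries and at 61.9 and 58.5 CPM in the Lin28a+ libraries, a log2 fold change of 1.39 ± 0.07 and the largest increase among the members. Cdkn1b was at 27.7 and 25.6 CPM against 42.5 and 38.2 CPM, a log2 fold change of 0.60 ± 0.08. Rb1, the pocket protein these kinases act on, was at 31.8 and 34.3 CPM in control and lower, at 20.8 and 20.6 CPM, in Lin28a+ MuSCs, a log2 fold change of -0.68 ± 0.06. Ccne1 was at 51.1 and 50.5 CPM against 63.3 and 62.4 CPM, a log2 fold change of 0.31 ± 0.04. Ccne2 rested on small values, which were 27 and 44 after rounding in control and 39 and 39 in Lin28a+ MuSCs, and its log2 fold change of 0.35 ± 0.17 became 0.14 without control replicate 1 and 0.62 without control replicate 2. In all, 5 members were higher and 5 lower.

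The other genes of this network, in 6 hand-written lists with 112 genes kept, were tested with edgeR's quasi-likelihood test at an adjusted p under 0.05. Over all genes, 28.1% were called higher and 28.7% lower. The lists were written with results of these data known, and since the replication genes chose the members, nothing is read from their count. Of the other G1 and S phase cyclins, CDKs and their activating kinase, 4 of 9 rose and 2 fell, with a median log2 fold change of 0.28 beside 0.01 over all genes. Ccna2 (log2 fold change 0.97 ± 0.03), Cdk1 (0.97 ± 0.03) and Cdk2 (0.82 ± 0.10), which act from S phase to mitosis and with cyclin E, were the higher genes with the largest changes, and Ccng1 (-0.99 ± 0.02), a p53 target, and Mnat1 (-0.21 ± 0.05), an assembly factor of the CDK-activating kinase, were the lower ones. DESeq2 called 3 higher and 1 lower, and not Mnat1 (adjusted p = 0.391), which was also lost without control replicate 2 (0.0840) or the first Lin28a+ column (0.185).

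The other CDK inhibitors split evenly, with 3 of 6 higher and 3 lower and a median of 0.29. Cdkn2a (INK4a and ARF) fell from a mean of 324 ± 2.10 CPM (SD, n = 2) to 69.2 ± 1.61 CPM, and Cdkn2b, its INK4 neighbour, fell from 99.5 to 30.1 CPM. Cdkn1a (p21) fell by 0.57 on the log2 scale. Cdkn2d, a further INK4 gene, rose by 1.30 ± 0.08, as did Cdkn3, a phosphatase that acts on CDKs, by 1.14 ± 0.08. Cdkn1c (p57) had 3 and 2 counts in the control libraries and 57 and 51 in the Lin28a+ libraries, so it was called higher on very few control counts. DESeq2 made the same count of calls in this list. Among the INK4 genes, Cdkn2c and Cdkn2d were the higher ones and Cdkn2a and Cdkn2b the lower.

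Of the pocket proteins, E2F factors and DREAM subunits, 10 of 18 rose and 3 fell (median 0.41). E2f2, an activator E2F, rose from 7.11 to 61.9 CPM, E2f8, an atypical repressor, from 38.3 to 110 CPM, and Mybl2, a DREAM target that binds MuvB, by 1.25 ± 0.09 on the log2 scale, while Tfdp2 (-0.76 ± 0.09), E2f6 (-0.61 ± 0.06) and E2f3 (-0.33 ± 0.05) were called lower. DESeq2 called 7 of this list higher and 0 lower, with adjusted p of 0.235, 0.106 and 0.265 for Tfdp2, E2f6 and E2f3. Among genes that control D cyclins and p27 or their turnover 6 of 17 rose and 6 fell (median -0.08). Skp2 (0.81 ± 0.07), Cks2 (0.70 ± 0.05) and Cks1b (0.70 ± 0.03), of which Skp2 and Cks1b serve the ubiquitination of p27, rose, and Dmtf1 (-0.78 ± 0.18), Cul3 (-0.67 ± 0.07) and Gsk3b (-0.67 ± 0.04), the last a kinase known to mark cyclin D1 for degradation, were called lower. DESeq2 called 4 higher and 3 lower, and not Dmtf1 (adjusted p = 0.459), which was also not called without a filter on low values (0.0550) or with any 1 library left out (0.0533 to 0.244). Of the E2F target and replication genes, whose count is given for completeness, 38 of 42 were higher and 1 was lower, or 29 and 1 with DESeq2. Rfc4 (1.57 ± 0.06), Dut (1.43 ± 0.04) and Gins1 (1.41 ± 0.12) had the largest changes, and Rrm2, a ribonucleotide reductase subunit, was lower (-0.27 ± 0.02). Of the G2 and mitosis genes 16 of 20 rose and 2 fell (median 1.05), with the largest changes in the CDK1-activating phosphatase Cdc25b (1.67 ± 0.05), in Cdc25c, which went from 7.61 to 20.1 CPM, and in the mitotic kinase Plk1 (1.39 ± 0.05), while the kinetochore motor Cenpe (-0.60 ± 0.07) and the proliferation marker Mki67 (-0.19 ± 0.04) were called lower. DESeq2 called 13 of this list higher and 0 lower, with adjusted p of 0.248 for Cenpe and 0.298 for Mki67, and Mki67 was also lost without control replicate 2 (0.0598) or the second Lin28a+ column (0.101).

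**Figure D2:**
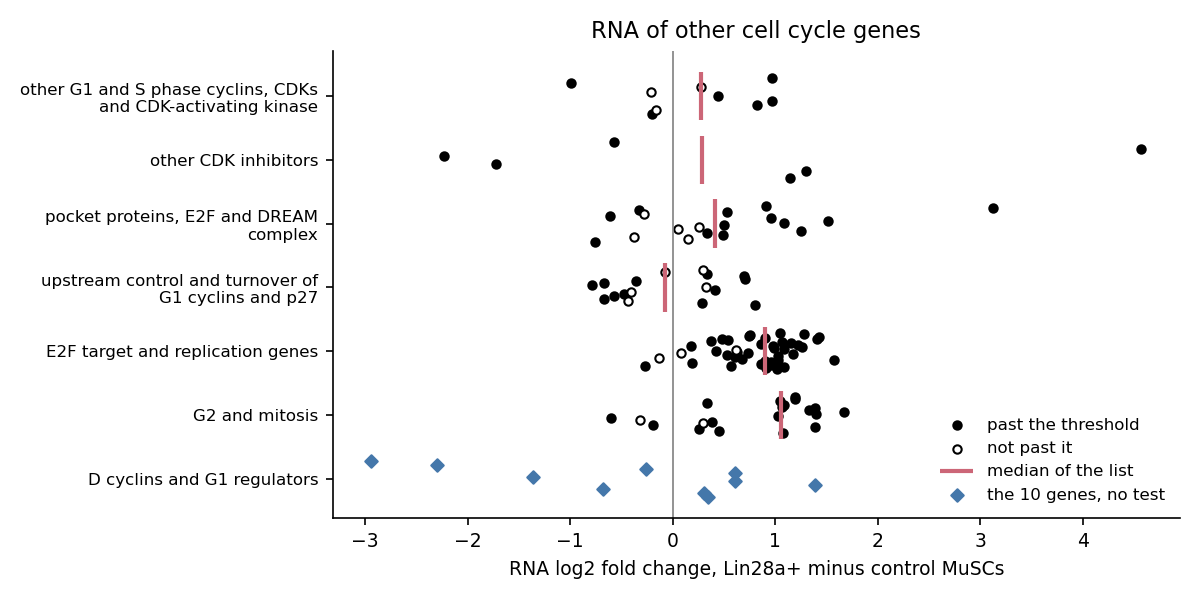
RNA log2 fold change of each kept gene of the 6 other lists (dots, filled where past an adjusted p of 0.05, with the list median as a line) and of the 10 members (diamonds, no test). The median lies at 0.90 for the replication genes and 1.05 for G2 and mitosis, and the members spread from -2.94 to 1.39.

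The m6A-RIP was available for 8 of the 10 members. Rb1 and Ccne2 had no row, and 65.5% of the genes kept in the input had one. Counts summed over the rows of a gene were tested in 4 libraries that did not choose the members, but such counts also follow the amount of RNA, and per the study's methods the input is a fraction of the mRNA that entered the m6A-RIP, so they do not bear on the RNA change independently. edgeR's quasi-likelihood test called 3 members lower and 4 higher, against 33.8% of the 9416 genes lower and 32.5% higher. Ccnd1 stood at 418 and 407 CPM in the control libraries and at 64.7 and 60.5 CPM in the Lin28a+ libraries, and fell by 2.72 ± 0.05 (SE) on the log2 scale (adjusted p = 5.25e-13). Ccnd2 stood at 363 and 379 CPM and at 96.0 and 87.5 CPM, and fell by 2.02 ± 0.05 (adjusted p = 1.04e-11). Both control libraries were above both Lin28a+ libraries for these cyclins, and the groups did not overlap for 82.6% of all genes. Ccnd3 fell by 0.12 ± 0.04 (adjusted p = 0.0149), from a mean of 401 to 368 CPM.

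Among the other members, Cdkn2c rose most in the m6A-RIP. Its control libraries were at 37.9 and 36.6 CPM and its Lin28a+ libraries at 99.3 and 103 CPM, a log2 fold change of 1.44 ± 0.06 (adjusted p = 4.92e-10). Cdkn1b rose by 0.56 ± 0.15 (adjusted p = 0.00511), Ccne1 by 0.35 ± 0.08 (adjusted p = 0.00183) and Cdk4 by 0.15 ± 0.04 (adjusted p = 0.00946). The calls of Cdk4 and Ccnd3, small in size, were lost with some of the libraries left out. Cdk4 was at 0.11 without control replicate 1 (adjusted p = 0.116) and at 0.13 without the second Lin28a+ column (0.0589), and with total counts as scaling, which moved the median of all genes to -0.09, at 0.05 (0.331). Ccnd3 was at -0.10 without control replicate 2 (0.124) and without the first Lin28a+ column (0.0830).

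The single m6A-RIP row of Cdk6 did not follow the Cdk6 RNA. It had 230 and 132 counts in control and 206 and 239 in Lin28a+ MuSCs, or 6.98 and 5.97 CPM against 8.96 and 7.96 CPM. Cdk6 was thus among the lower genes of the m6A-RIP, ranked between 7346th and 8112th of 9416. The row is assigned to transcript ENSMUST00000199156.1, whereas the Cdk6 peaks described below are assigned to ENSMUST00000042410. It carries no position, and whether it holds RNA of a neighbouring gene was not tested. Both Lin28a+ libraries were above both control libraries, but the log2 fold change of 0.38 ± 0.17 was not past the threshold (adjusted p = 0.0693). Set against the input in 1 model with an interaction of assay and cells, the m6A-RIP change of Cdk6 exceeded its RNA change by 1.74 ± 0.15 on the log2 scale, the 51st highest of 7414 genes. No p is given for such differences, because the model holds the input libraries that chose the members. The excess lay between 1.64 and 1.87 under every scaling tried and with each library left out. The other D cyclin kinase lay on the opposite side, with a difference of -0.44 ± 0.05 for Cdk4.

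For the cyclins the differences from the RNA change were smaller. They were 0.22 ± 0.06 for Ccnd1, 0.29 ± 0.07 for Ccnd2 and 0.14 ± 0.05 for Ccnd3, and 0.05 ± 0.08 for Ccne1. Cdkn2c (0.05 ± 0.10) and Cdkn1b (-0.05 ± 0.18) lay within their standard error of 0 and changed sign with a library left out. Cdkn2c ran from -0.03 (without input control replicate 1) to 0.14 (without input control replicate 2), and Cdkn1b from -0.21 (without m6A-RIP control replicate 2) to 0.17 (without m6A-RIP control replicate 1). The median over all 7414 genes was -0.01.

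In the other network genes, 77 of which had an m6A-RIP row, 49 rose and 21 fell in the m6A-RIP, beside 32.5% of all genes called higher and 33.8% lower. These include 25 replication genes, of which 20 were higher and 3 lower and whose count is not read, since their RNA was used in choosing the members. Rfc4 (-0.90 ± 0.07), a clamp loader subunit, and Dut (-0.91 ± 0.15), which removes dUTP, fell in the m6A-RIP (adjusted p = 2.16e-07 and 2.00e-04 by the quasi-likelihood test) although their RNA was higher. They were named for the size of their RNA rise. How many of all genes changed in opposite directions was not counted, so nothing is read from these examples.

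**Figure D3:**
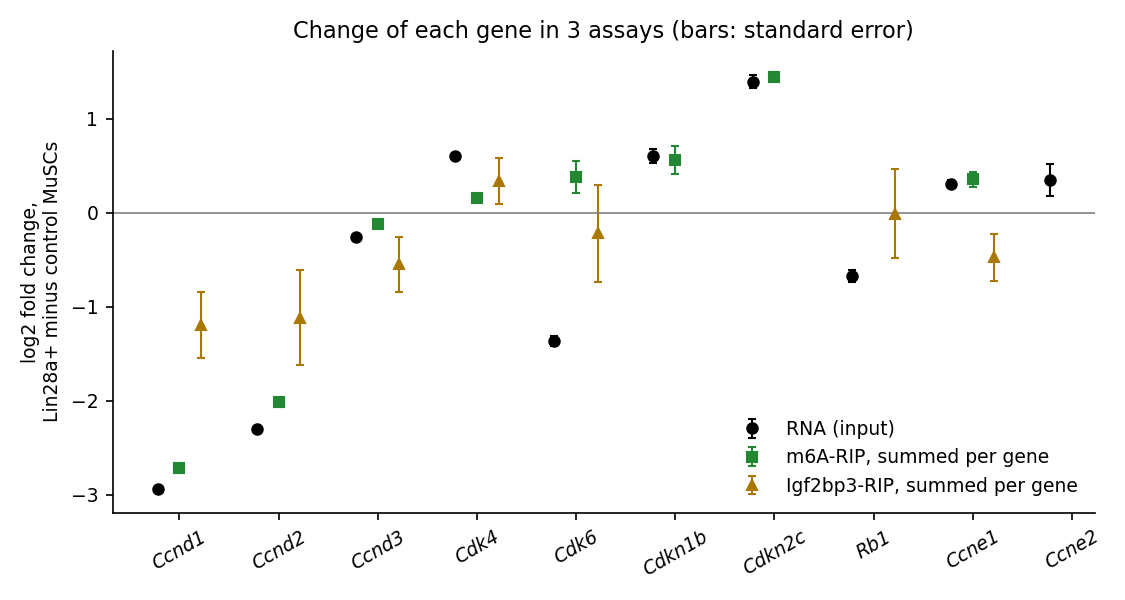
Log2 fold change between Lin28a+ and control MuSCs of each of the 10 genes in the RNA (circles), the m6A-RIP (squares) and the Igf2bp3-RIP (triangles), with standard errors as bars. Of the 8 genes with an m6A-RIP row, Cdk6 lies at 0.38 in the m6A-RIP against -1.37 in the RNA and Cdk4 at 0.15 against 0.60, and the other 6 lie closer to their RNA.

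A change in the amount of RNA of a gene is common to its rows, and how a row changed relative to its gene was not used to choose the members. A change in methylation and a change in the transcripts made from a gene cannot be told apart in such a comparison. The deposited rows carry a transcript but no position, and they are numbered here in the order of the table. Of the 13 rows of members with several rows, 3 changed unlike their gene, against 7.79% of 14366 rows tested, with edgeR's diffSpliceDGE. The third row of Ccnd2, assigned to transcript ENSMUST00000201902.3, had 148 and 80 counts in control and 124 and 141 in Lin28a+ MuSCs. In CPM that was 4.42 and 3.54 against 5.50 and 4.78, a log2 fold change of 0.35 ± 0.22, while the first 2 rows had -2.06 ± 0.06 and -1.93 ± 0.07. It differed from its gene by 2.32 on the log2 scale (adjusted p = 3.99e-08), the 50th largest difference of all rows, and its adjusted p stayed between 2.87e-08 and 2.76e-05 with each library left out or with a filter of at least 10 counts. This row carries under 2% of the control counts of Ccnd2, and RefSeq lists another gene, 9330179D12Rik, over part of the Ccnd2 span.

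The other called rows differed less. The second row of Ccnd1, at 51.6 and 52.9 CPM in the control and 5.68 and 6.13 CPM in the Lin28a+ libraries, fell further than its gene by -0.47 (adjusted p = 0.0122). The third row of Ccnd3, at 76.6 and 72.5 against 91.5 and 87.3 CPM, went the other way from the fall of its gene, by 0.33 (adjusted p = 0.00205). Both calls were lost with some of the libraries left out, while the direction stayed. The Ccnd1 row was at -0.52 without control replicate 1 (adjusted p = 0.127), -0.43 without control replicate 2 (0.234) and -0.37 without the first Lin28a+ column (0.205), and the Ccnd3 row at 0.27 without control replicate 2 (0.129) and 0.28 without the first Lin28a+ column (0.141). The 3 rows of Cdkn2c, of which none was called unlike its gene, had higher levels in both Lin28a+ libraries, and the third, with the most counts, stood at 22.3 and 20.3 against 57.7 and 62.6 CPM.

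**Figure D4:**
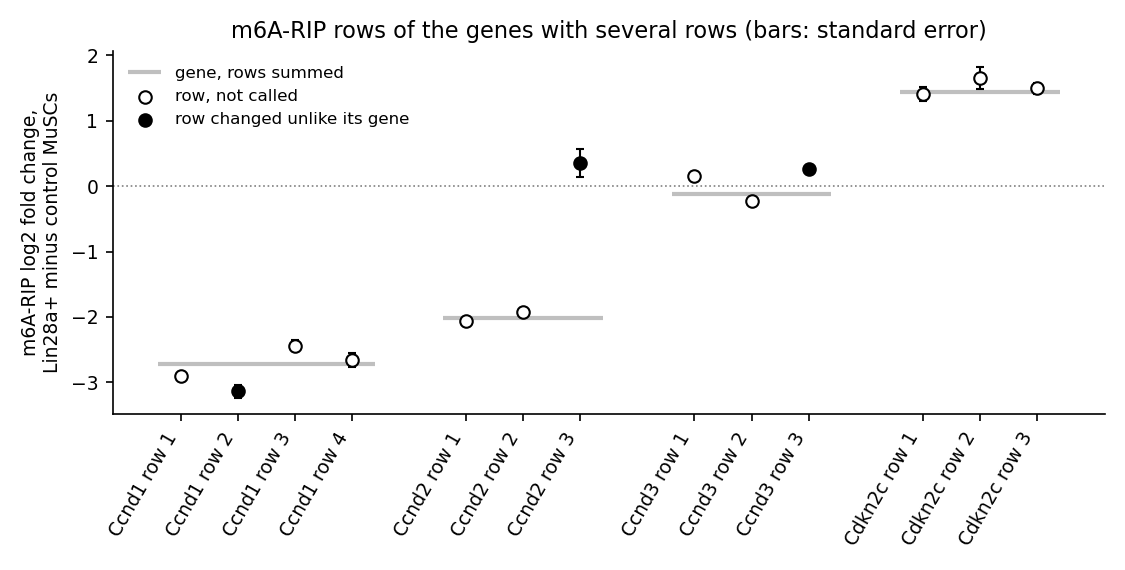
m6A-RIP log2 fold change of each row of the 4 members with several rows (points, standard errors as bars, filled where the row changed unlike its gene) beside the change of the summed gene (grey line). The third Ccnd2 row lies at 0.35 while its gene lies at -2.02.

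Igf2bp3-RIP peaks were annotated to 7 of the 10 members, and Cdkn1b, Cdkn2c and Ccne2 had none, against 32.8% of kept genes with a peak. Positions are those deposited, in mouse coordinates that match GRCm38, the build named mm10 in the submitters' processing notes. Ccnd2 carried 5 of the members' 15 peaks, all within its RefSeq span of chr6:127125162-127152188, and the widest, at chr6:127125167-127129276, covered 4110 bases. Over its peaks Ccnd2 held 0.419% and 0.692% of all Igf2bp3-RIP counts of the control libraries, which ranked it 14th and 7th of 4527 genes, and 0.172% and 0.349% in Lin28a+ MuSCs, where it ranked 53rd and 16th. Divided by the library total and the width of the peak, the 5 Ccnd2 peaks had 602 to 1332 CPM per kb in the control libraries and 247 to 684 CPM per kb in the Lin28a+ libraries, and the last of them also overlaps 9330179D12Rik.

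Ccnd3 had a pair of neighbouring peaks, and the one at chr17:47598799-47599109 stood at 1091 and 1386 CPM per kb in control and 1110 and 749 in Lin28a+ MuSCs, within the first 131 of 19465 peaks in every library. The other Ccnd3 peak also overlaps Bysl. The single Ccnd1 peak, at chr7:144934141-144934340, stood at 427 and 675 against 204 and 289. Cdk6 had 3 peaks between 54.7 and 229, the first of which begins just past the promoter window printed above, and Ccne1 had a pair between 95.7 and 247. The 1 peak annotated to Cdk4 lies 231 bases past the end of Cdk4 in RefSeq and within Tspan31, and the 1 peak of Rb1 was weak, at 23.0 to 64.7.

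No member passed the threshold for a change in the Igf2bp3-RIP in the fit with the cells as its only term. With a further term for the replicate number the calls of members and their peaks differed, as given in the closing section. Summed per gene, edgeR's quasi-likelihood test called 0 of 7 members with 0.287% of all genes called, 1 member, Ccnd1, had an unadjusted p under 0.05 beside 8.44% of all genes, and DESeq2 also called 0. Ccnd1 was at 83.1 and 142 CPM in the control libraries and at 38.7 and 59.6 CPM in the Lin28a+ libraries, a log2 fold change of -1.19 ± 0.35 (adjusted p = 0.403). Ccnd2 was at 4084 and 7279 CPM against 1633 and 3597 CPM, a log2 fold change of -1.12 ± 0.50 (adjusted p = 0.629). For both cyclins the groups did not overlap, as was so for 4 of the 7 members and for 38.2% of all genes, and replicate 2, with 27592959 and 34142094 counts in all against 9215355 and 12617254, was the higher library in each group. Single libraries moved these values. Without control replicate 1, Ccnd1 alone was called (-1.53, adjusted p = 0.0266), and without control replicate 2 it was at -0.76 (adjusted p = 0.782). Ccnd2 lay at -0.64 without control replicate 2 or Lin28a+ replicate 1 and at -1.76 without Lin28a+ replicate 2.

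Log2 fold changes of the remaining genes were -0.55 ± 0.29 for Ccnd3 and -0.48 ± 0.25 for Ccne1, whose groups did not overlap. With a library left out, Ccnd3 lay between -0.21 (without control replicate 2) and -0.82 (without control replicate 1), Ccne1 between -0.22 (without control replicate 1) and -0.70 (without control replicate 2) and Cdk4 between 0.09 (without Lin28a+ replicate 1) and 0.60 (without Lin28a+ replicate 2). Cdk4 (0.33 ± 0.25, from the peak within Tspan31), Cdk6 (-0.22 ± 0.52) and Rb1 (-0.01 ± 0.47) had overlapping groups, with adjusted p from 0.690 to 0.999 over these 5 genes. Per peak, 0 of the 15 peaks were called with 0.123% of all peaks called, 5 (4 of Ccnd2 and that of Ccnd1) had an unadjusted p under 0.05 beside 5.22% of all peaks, and DESeq2 called 1, the Ccnd2 peak at chr6:127150635-127151098. That peak had 4185 and 10650 counts in control and 2172 and 6170 in Lin28a+ MuSCs (log2 fold change -1.28 ± 0.28, adjusted p = 0.281). The common spread between replicates was 25.4% per gene in the Igf2bp3-RIP, 5.74% in the m6A-RIP and 2.48% in the input.

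Relative to input, the Igf2bp3-RIP change of Ccnd1 exceeded its RNA change by 1.52 ± 0.42 on the log2 scale, the 41st highest of 3713 genes, and those of Ccnd2 and Cdk6 by 0.95 ± 0.57 and 0.92 ± 0.69. The RNA change subtracted here is the one by which Ccnd1 and Ccnd2 were chosen. Their high values are thus partly set by that choice, and the rank is a description with no test. Ccne1 lay at -1.01 ± 0.24, Ccnd3 at -0.52 ± 0.31, Cdk4 at -0.50 ± 0.24 and Rb1 at 0.41 ± 0.56. The value of Cdk4 sets a peak within Tspan31, past the end of Cdk4, against Cdk4 RNA. Scaling over all features of each table, in place of the genes found in both, moved the median over all genes from 0.02 to 0.25 and the members by a like amount, to 1.75 for Ccnd1 and -0.78 for Ccne1, with no change of sign. Single Igf2bp3-RIP libraries moved these differences. Without Lin28a+ replicate 2 they were 0.30 for Ccnd2, -0.02 for Cdk6 and 1.01 for Rb1, and without Lin28a+ replicate 1 they were 1.43 for Ccnd2 and -0.37 for Rb1, with that of Cdk6 more than 1.5 times as large. Without control replicate 1 they were 0.59 for Ccnd2 and 0.60 for Cdk6, and without control replicate 2 they were 1.43 for Ccnd2 and 1.96 for Ccnd1, while that of Ccnd1 lay at 1.18 or above throughout. Ccnd3 lay at -0.18 without control replicate 2, -0.32 without Lin28a+ replicate 2 and -0.80 without control replicate 1, and Cdk4 at -0.25 without Lin28a+ replicate 2.

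Lin28a-RIP peaks, from Lin28a+ MuSCs only and so with no comparison, were annotated to 2 of the 10 members, with 25.3% of kept genes holding one. Ccnd2 had 5 and Cdk6 had 2, and over its peaks Ccnd2 held 25803 and 24347 counts, which ranked it 318th and 315th of 3493 genes. The Ccnd2 peaks had 110 to 157 CPM per kb and those of Cdk6 28.8 to 40.0. The highest per kb on Ccnd2 lay at chr6:127129525-127130569, with 155 and 157, ranked 3566th and 3495th of 21616 peaks. All 7 shared at least 1 base with a peak of the Igf2bp3-RIP, as did 52.4% of all Lin28a-RIP peaks, and 4 of 7 did so where each peak had to cover at least 50% of the other, against 43.0% of all. Overlaps of positions in separate libraries do not show that both proteins sat on the same RNA molecule.

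**Figure D5:**
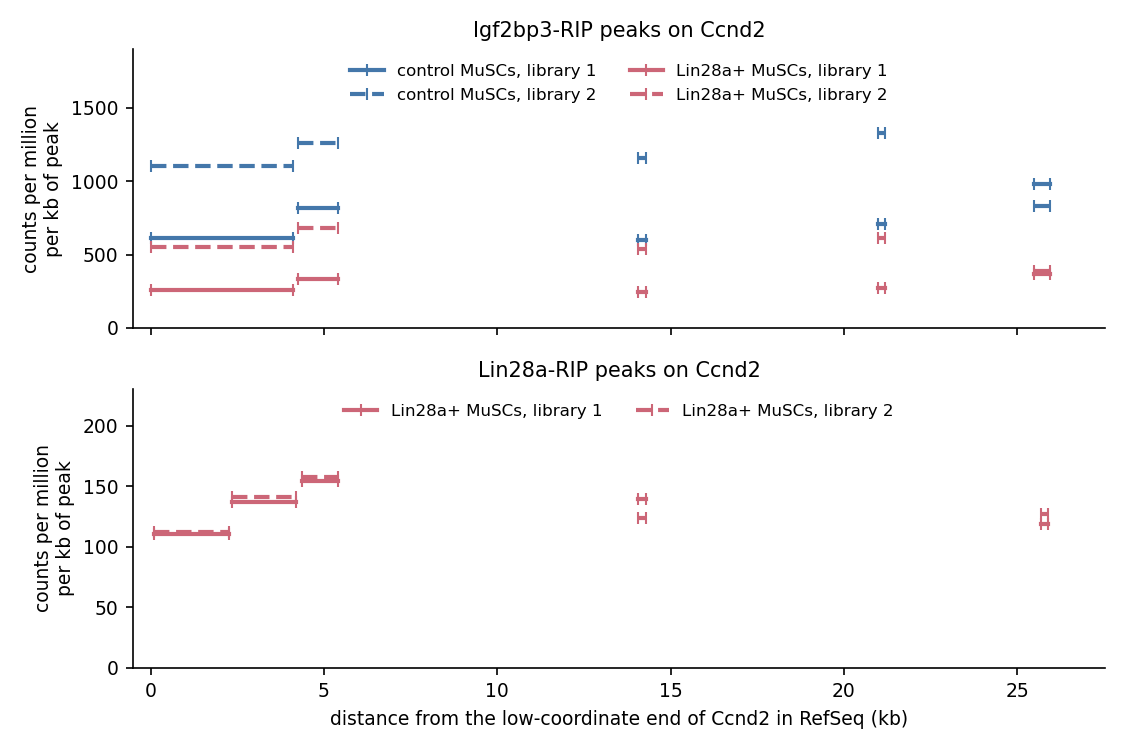
Igf2bp3-RIP peaks (top) and Lin28a-RIP peaks (bottom) along Ccnd2, as distance in kb from the low-coordinate end of the gene, with the height in CPM per kb of peak on separate scales, colour for the cells and solid or dashed lines for library 1 or 2. At each of the 5 Igf2bp3-RIP peaks both control libraries lie at or above 602 and Lin28a+ library 1 at or below 371, while Lin28a+ library 2 reaches from 389 to 684, at 4 of the peaks close to control library 1.

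Peaks in the span of a member may belong to a neighbour. Within the Cdk6 span 8 Igf2bp3-RIP and 11 Lin28a-RIP peaks were annotated to Fam133b, in the Ccne2 span 3 and 1 to Ints8, and in the Ccnd2 span 1 and 1 to 9330179D12Rik, and none of these were counted as members' peaks.

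The genes with a pattern most like those of Ccnd1 and Ccnd2 were found by the root mean square difference of log2 CPM over the 12 input, m6A-RIP and Igf2bp3-RIP libraries, centred within each assay, among 3127 genes. Nearest to Ccnd1 were Dclk1 (0.26), Ccnd2 (0.30) and Deptor (0.30), and nearest to Ccnd2 were Errfi1 (0.17), Srgap1 (0.21) and Slc41a2 (0.22). Both cyclins were chosen for their fall in input libraries that enter this distance. Their nearness to each other was thus partly set in advance and is not read as a result. Dclk1 had log2 fold changes of -2.76 in the RNA, -2.60 in the m6A-RIP and -1.73 in the Igf2bp3-RIP, and Errfi1 had -1.81, -1.71 and -1.10.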

How the data were processed

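Reads of control and Lin28a+ MuSCs had been aligned by the authors with Hisat2. The submitters' processing notes list FastQC, HISAT2 2.0.4, DESeq2 1.42.0 and MACS2 1.4.3, with the builds GRCh38 and mm10. The identifiers and coordinates in the tables are those of mouse. Peak thresholds and the program that counted reads are not given in the sources used here.

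For the input the authors deposited expected counts per gene, not all whole. For 4 of the 10 members (Ccnd2, Cdkn1b, Cdkn2c and Ccne1) each value multiplied by 1 small number (8, 3, 2 and 5) came within 0.05 of a whole number, as a mean over transcripts would, and for the other 6 no multiplier up to 20 did. How the values were made is not given in the sources used here, and they need not be numbers of reads, so members' RNA levels were not compared with each other. They were rounded. For the RIP libraries the deposited values are whole-number counts per peak, unscaled.

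Columns were matched to samples by name. The Lin28a+ input columns bear names of m6A-RIP libraries and the Lin28a+ m6A-RIP columns share 1 name, so these 4 were assigned to their group without replicate numbers. Of the rows, 99.96% to 99.98% had a gene symbol.

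Tests used edgeR 4.0.16 (quasi-likelihood test, TMM, filterByExpr, Benjamini-Hochberg adjusted p under 0.05) in R 4.3.3 over each whole table, with DESeq2 1.42.0 as an alternative. They were tested on simulated data with independent replicates. For the Igf2bp3-RIP the simulated spread was smaller than the 25.4% per gene and 27.9% per peak fitted here. The simulation therefore does not show how well changes in the Igf2bp3-RIP are found. Over the features checked, replicates of each pair differed by more than counting noise. In the input these were only genes with whole-number values, 578 in the control and 557 in the Lin28a+ pair. The 10 members were not among them, and their RNA standard errors were not checked against counting noise, so these may be too small. Ccnd2, for example, had an SD of only 0.0161 CPM between the Lin28a+ input libraries. Named network genes are the 3 higher and 3 lower with the largest change per list, or fewer where fewer passed. Marker genes are the 3 of a list with the highest mean, and those a count needs, and the nearest genes are 3 each for Ccnd1 and Ccnd2. The sequences shown were chosen after values were seen. Members and lists were chosen with earlier results of these data known. Lin28a itself was not analysed here.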

Additional observations from a re-analysis of the deposited data

How the results depend on the processing

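In the Igf2bp3-RIP the numbers of calls depended most on the model, while the members' log2 fold changes moved more with single libraries left out. The labels number the Igf2bp3-RIP libraries 1 and 2 in both groups, and the differences between replicates 2 and 1 correlated across 19465 peaks between the groups (Pearson's r = 0.69), but no label says that a number marks a shared batch. With a replicate block 374 genes were called in place of 13 and 1988 peaks in place of 24, among them 2 members per gene (Ccnd1, -1.18, adjusted p = 0.00143, and Ccnd2, -1.17, adjusted p = 0.0141) and 8 peaks of members. DESeq2 called 115 genes, 263 peaks and 1 peak of a member. With at least 100 counts in every library 1 gene and 0 peaks were called in all, and with total counts 7 genes and 36 peaks. With each library left out, 0 to 1 members were called per gene, and 39 to 73 genes and 108 to 193 peaks in all. The Igf2bp3-RIP log2 fold change of Rb1 turned to 0.00395 with DESeq2, 0.0494 with total counts, 0.0245 with at least 100 counts and lay between -0.82 and 0.57 with a library left out, and that of Cdk6 between -1.14 and 0.37. No paired analysis was possible for the input and the m6A-RIP because the Lin28a+ columns carry no replicate number of their own.

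In the m6A-RIP 6 or 7 members were called per gene, and 1 to 3 rows changed unlike their gene. Of rows that were not called, the second Cdkn2c row lay between -0.0526 and 0.36 with a library left out, the third between -0.0362 and 0.0450, and the fourth Ccnd1 row between -0.21 and 0.19. In the RNA 84 to 94 network genes were called with edgeR. DESeq2 called 67 (59 higher and 8 lower) and 3039 genes in all in place of 6432. The RNA log2 fold changes of the 10 members kept their sign under each alternative. Of Lin28a-RIP peaks, 4 in place of 7 overlapped an Igf2bp3-RIP peak at 50%. The causes were not tested. The scaling over all features of each table was chosen after seeing the data. The RNA of Ccne2 is limited by its small values of 27 to 44 a library.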
